A study of Mus musculus with 3 samples.

Results

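The transcripts described here are those of the 3 mouse genes Zfp36, Zfp36l1 and Zfp36l2, which encode RNA-binding proteins of the ZFP36 family. They were chosen by name: every position that the authors' crosslink list assigned to 1 of these 3 genes was taken, whatever its segment type. This gave 204 of 462392 positions, in 3 of 14592 gene names. Zfp36 had 67 positions with a summed count of 169, Zfp36l1 had 84 positions with 257, and Zfp36l2 had 53 positions with 154.

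The list comes from individual-nucleotide resolution crosslinking and immunoprecipitation (iCLIP), in which ultraviolet light joins a protein to the RNA it touches and the end of the resulting cDNA marks the base. Intact thymocytes described as total and naive, from the strain C57BL/6JBabr, received 300 mJ/cm2, and RNA complexes that the labels name as those of ZFP36L1 were recovered with an antibody called Brf1/2, older names of ZFP36L1 and ZFP36L2. The libraries were 1 of DCKO genotype, a double conditional knockout of Zfp36l1 and Zfp36l2, and 2 of WT genotype from independent experiments. The sources used here do not give the driver of the knockout, the bases deleted, or the age and number of mice. Counts are not split by library, and the sources used here do not give which of the 3 were pooled. DCKO and WT cells could therefore not be compared, no value below has a replicate error, and no test was made.

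ZFP36 proteins grip single-stranded AU-rich RNA with a tandem pair of CCCH zinc fingers, whose core target is UAUUUA, written TATTTA in DNA letters. They bring the CCR4-NOT deadenylase to the 3′ UTR, so that the poly(A) tail is shortened and the mRNA decays. Zfp36 encodes tristetraprolin, an immediate early gene product known to act on its own mRNA through AU-rich elements. Zfp36l1 and Zfp36l2 are known to act redundantly in early thymocytes, where the loss of both is followed by T cell leukaemia.

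The 3 3′ UTRs lie on the minus strand of GRCm38, each as a single block of the longest GENCODE 3′ UTR of its gene. They hold 12 copies of TATTTA, which are shown in windows of 30 nt because most of the counts in Zfp36 and Zfp36l2 lay beside them. Capitals mark the hexamer, and nt gives the distance from the stop codon, with the first base of the 3′ UTR as nt 1.
Zfp36 nt 571 to 600, chr7:28376958-28376987: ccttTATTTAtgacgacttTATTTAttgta
Zfp36 nt 603 to 632, chr7:28376926-28376955: aagattttatagTATTTAtatatattgggt
Zfp36l1 nt 1129 to 1158, chr12:80108431-80108460: ctTATTTAacttatcaaaacgTATTTAttg
Zfp36l1 nt 1179 to 1208, chr12:80108381-80108410: taattttgttcaTATTTAtcgggatgacaa
Zfp36l1 nt 1393 to 1422, chr12:80108167-80108196: aaactgttggatTATTTAttttagaaattc
Zfp36l1 nt 1748 to 1777, chr12:80107812-80107841: tttgtgtgaattTATTTAaaagaaaaaaaa
Zfp36l2 nt 806 to 835, chr17:84184918-84184947: gaaaaacTATTTAactTATTTAttatcttg
Zfp36l2 nt 858 to 887, chr17:84184866-84184895: ttgtccatactgTATTTAtcgagtatgatg
Zfp36l2 nt 1044 to 1073, chr17:84184680-84184709: gattgtatgtaaTATTTAtttcattaattt

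Crosslinks in all 3 transcripts lay almost wholly in the 3′ UTR. Of all counts of the gene, the 3′ UTR held 90.5% in Zfp36 (95% Wilson interval 85.2 to 94.1), 91.4% in Zfp36l1 (87.4 to 94.3) and 95.5% in Zfp36l2 (90.9 to 97.8). All intervals here take each count as an independent molecule, which is not known to hold. They leave out the spread between libraries and may be too narrow even for counting error. Among 106 other genes with at least 100 counts in the 3′ UTR, the median of this share was 49.6%, and it was higher than in Zfp36 in 4, higher than in Zfp36l1 in 4 and higher than in Zfp36l2 in 1. In the transcripts used here, the intron was 680 nt long in Zfp36, 2270 nt in Zfp36l1 and 487 nt in Zfp36l2. Intron counts enter this share, and the intron lengths of the other genes were not compared.

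Little signal lay in the rest of the 3 genes. Coding sequence held 14 counts in Zfp36, 9 in Zfp36l1 and 3 in Zfp36l2. The introns held 2, 13 and 0 counts in the same order, and the 5′ UTR held 4 counts, all in Zfp36l2. No position outside the 3′ UTR had a count above 2. In terms of sites, meaning positions with an authors' false discovery rate (FDR) below 0.05, Zfp36 had 3 coding sites within 11 nt, at chr7 positions 28377855, 28377856 and 28377865. Zfp36l2 had 2 sites in its 5′ UTR, at chr17 positions 84187869 and 84187881, and Zfp36l1 had none outside its 3′ UTR.

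Within the 3′ UTR, sites made up 45 of 59 listed positions in Zfp36, 59 of 71 in Zfp36l1 and 30 of 49 in Zfp36l2, beside 37.8% of all 3′ UTR positions of protein-coding genes. The latter share was not matched for counts per gene, so nothing is read from the difference. Other genes with at least 100 counts in the 3′ UTR varied, with 59 of 65 positions in Lars2 and 16 of 85 in Hipk1. The threshold fell at a different signal in each gene. The authors' extended count, the sum within 15 nt, was at least 14 at every Zfp36 site there and at most 12 at its other 3′ UTR positions. In the Zfp36l1 3′ UTR it was at least 16 at every Zfp36l1 site and at most 6 elsewhere, so no position of that 3′ UTR came near the limit. In Zfp36l2 the sites began at 9 and the other positions ended at 8, with an FDR of 0.0184 just inside the threshold and 0.0504 just outside.

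Signal per length was highest in Zfp36. Its 3′ UTR of 774 nt (chr7:28376784-28377557) held 153 counts, or 198 per kb (95% Poisson interval 168 to 232). Zfp36l1 held 235 counts in 1835 nt (chr12:80107754-80109588), or 128 per kb (112 to 146), and Zfp36l2 held 147 in 1822 nt (chr17:84183931-84185752), or 80.7 per kb (68.2 to 94.8). The 3 intervals do not overlap, but they take counts as independent, so their separation is not a test. The list holds no measure of transcript abundance, so more transcripts per cell, more cells with the transcript and more crosslinks per transcript cannot be told apart. Over 102 other genes of at least 100 counts with a known 3′ UTR length, the median was 48.9 per kb, and 10, 17 and 33 of them stood above Zfp36, Zfp36l1 and Zfp36l2.

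**Figure D1:**
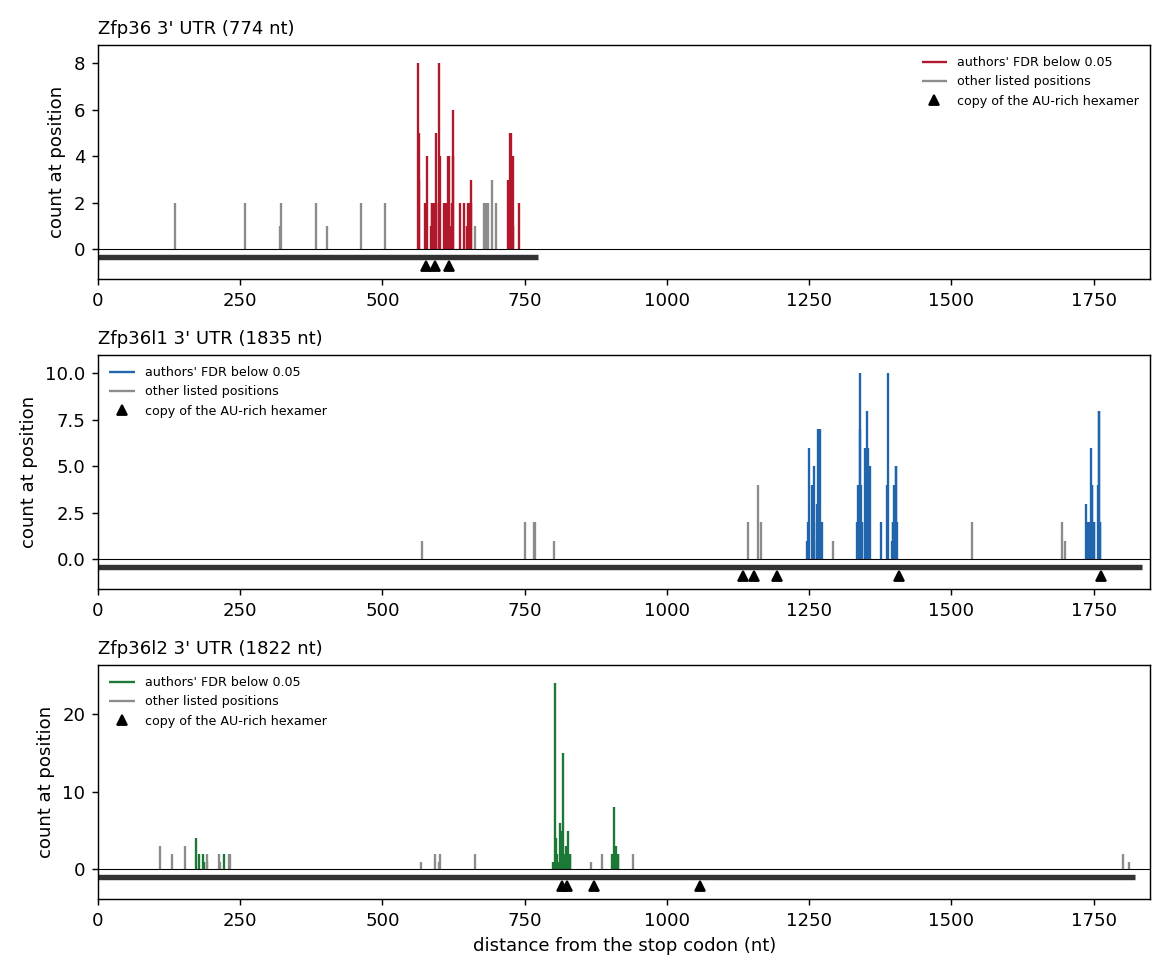
Count at each listed position along the 3′ UTRs of Zfp36, Zfp36l1 and Zfp36l2, by distance from the stop codon in nt, with sites and other listed positions in separate colours and triangles at the copies of TATTTA. Counts pile up at nt 563 to 656 and nt 721 to 740 in Zfp36 and at 4 places from nt 1246 onwards in Zfp36l1. In Zfp36l2 they pile up at nt 800 to 830, with fewer at nt 903 to 915.

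The map of counts along each 3′ UTR showed a different layout in each gene. Zfp36 carried 1 broad block over 3 hexamers and a smaller one of 27 counts at nt 721 to 740. Zfp36l1 carried 4 separate blocks beyond its midpoint. Of these, 3 ended 562 to 431 nt and 1 ended 73 nt before the end of the 3′ UTR. Zfp36l2 carried 1 narrow block near the middle and smaller ones of at most 19 counts. Joining listed positions up to 15 nt apart gave 10 clusters in Zfp36, 13 in Zfp36l1 and 14 in Zfp36l2. Only 3, 5 and 5 of these held at least 5 counts, and the clusters below 5 held 14, 16 and 19 counts in all. Joining the sites alone gave 2, 4 and 4 clusters, which are described next.

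In Zfp36, the gene for tristetraprolin, 36 of 45 sites fell in a single cluster at nt 563 to 656 (chr7:28376902-28376995). It held 100 counts, of which 85 lay within 20 nt of TATTTA, meaning that the whole hexamer fitted within 20 nt on either side of the base. The 3 hexamers, at nt 575, 590 and 615, had 41, 43 and 36 counts near them, and their windows overlap. The highest positions, nt 563 and nt 599, had 8 counts each, and no other position of this gene exceeded 6. The signal was thus spread over many bases of a stretch that holds every copy of the motif in this 3′ UTR.

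The other Zfp36 cluster lay at nt 721 to 740 (chr7:28376818-28376837), 34 nt before the end of the 3′ UTR. It held 27 counts on 9 sites, none of them near TATTTA. It preceded the only AATAAA of this 3′ UTR, the usual polyadenylation signal, at nt 752. The bases under this cluster, shown because they carry sites with no hexamer, have capitals at every base with a listed position and include a T-rich run and a G-rich run.
Zfp36 nt 711 to 740, chr7:28376818-28376847: taccgtacaaGTcTATtTTTtggggggggT

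In Zfp36l1, deleted together with Zfp36l2 in DCKO cells, sites fell in 4 clusters of similar size. They held 46 counts at nt 1246 to 1273, 68 at nt 1335 to 1357, 40 at nt 1377 to 1404 and 59 at nt 1736 to 1762. The largest, at chr12:80108232-80108254, had no count near TATTTA, and neither did the first, at chr12:80108316-80108343. These 2 clusters together had 29 sites, of 59 in this 3′ UTR. Of the others, the third had 24 of 40 counts near the hexamer at nt 1405, and the fourth had 46 of 59 near the hexamer at nt 1760.

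Bases with counts in the hexamer-free clusters of Zfp36l1 were mostly T. In the larger of them 69.6% of bases were T, and its sequence holds TATTTTA. The highest positions of the gene, with 10 counts each, were the T at nt 1339 in this cluster and the G at nt 1388 in the next. Both sequences are shown with capitals at every base that has a listed position.
Zfp36l1 nt 1328 to 1357, chr12:80108232-80108261: aactttaCActTTTtTtggtTATTTTAtTT
Zfp36l1 nt 1244 to 1273, chr12:80108316-80108345: tcTtCaTattaAtCTTaaaATTTtGTgacG

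In Zfp36l2, its close paralog, 83 of 113 site counts fell within 31 nt at nt 800 to 830 (chr17:84184923-84184953), and all 83 lay near TATTTA. Here the hexamers at nt 813 and 822 stand 3 bases apart. The T at nt 803, position 84184950, had 24 counts, and the T at nt 817, the fifth base of the first hexamer, had 15. The first of these alone made up 16.3% of the counts of this 3′ UTR, against 5.23% at the highest position of Zfp36 and 4.26% at that of Zfp36l1. In 106 other genes the median share of the highest position was 5.92%, and 5 exceeded Zfp36l2.

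Smaller Zfp36l2 site clusters had no count near the hexamer. They held 9 counts at nt 172 to 187, 2 at nt 221 and 19 at nt 903 to 915. The first of these is A and T throughout. The stretch from nt 942 to 1800, 859 nt in all, had no listed position, although it contains the hexamer at nt 1056.

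**Figure D2:**
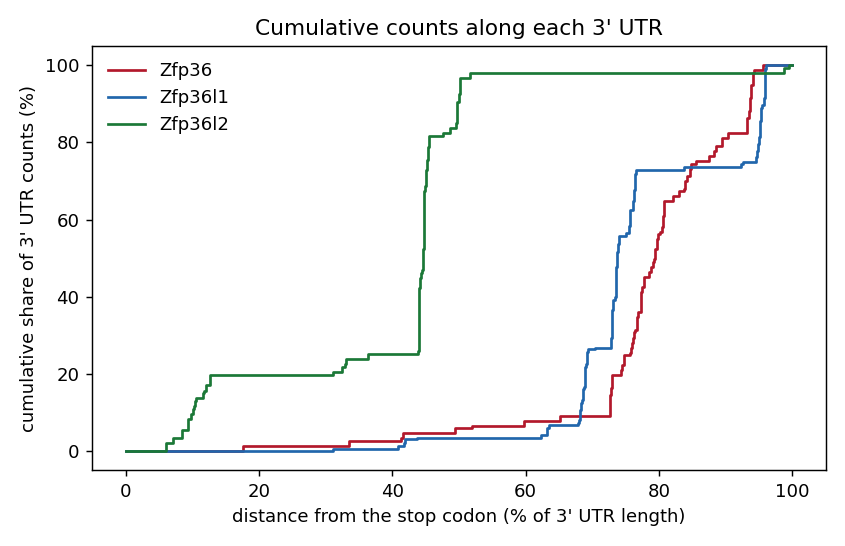
Cumulative share of the 3′ UTR counts in percent against distance from the stop codon in percent of the 3′ UTR length, 1 line per gene. Zfp36 and Zfp36l1 gather 94.1% and 96.6% of their counts beyond the midpoint, and Zfp36l2 gathers 7.48% there.

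Placed on a common scale, the counts of Zfp36 and Zfp36l1 lay towards the poly(A) end and those of Zfp36l2 towards the stop codon. Beyond the midpoint of the 3′ UTR were 94.1% of the counts of Zfp36, 96.6% of those of Zfp36l1 and 7.48% of those of Zfp36l2. The smallest stretch with at least 50% of the counts was 24 nt long in Zfp36l2 (nt 803 to 826), 62 nt in Zfp36 (nt 563 to 624) and 132 nt in Zfp36l1 (nt 1257 to 1388). For 80% of the counts the order changed, with 163 nt in Zfp36, 496 nt in Zfp36l1 and 695 nt in Zfp36l2. Zfp36l2 thus combined the sharpest peak of the 3 with the most scattered remainder.

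The position of the Zfp36l1 counts also bears on its annotated isoforms. GENCODE lists a shorter transcript of this gene, whose 3′ UTR ends at nt 891. Beyond that end lay 66 of the 71 listed positions and 227 of the 235 counts, or 96.6%, among them every site. The shorter transcript thus does not contain the bases of any site.

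Over each whole 3′ UTR, the share of listed counts near TATTTA was 55.6% in Zfp36 (95% Wilson interval 47.6 to 63.2), 33.2% in Zfp36l1 (27.5 to 39.4) and 58.5% in Zfp36l2 (50.4 to 66.2). The bases that lie equally near the hexamer were 9.82%, 8.88% and 6.42% of the same 3′ UTRs. The ratio of the 2 shares was 5.66 in Zfp36, 3.74 in Zfp36l1 and 9.11 in Zfp36l2. It was not corrected for the T content of the bases near the hexamer, although most counts stood at a T. The part of T content in the ratio was not tested. Zfp36l1 had the lowest share near the hexamer, although it has the most copies. Its interval lay apart from those of the other 2 genes, but the intervals take counts as independent and no test was made. Over sites alone the shares were 66.9%, 32.9% and 73.5%. In 106 other genes the median share over all listed counts was 18.8%, and 17, 37 and 15 of them exceeded Zfp36, Zfp36l1 and Zfp36l2.

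Counts near the copies of the hexamer ranged widely in Zfp36l1 and Zfp36l2 and were close to each other in Zfp36, with 41, 43 and 36 near its 3 copies, whose windows overlap. Of the 12 copies, 10 had at least 1 count near them and 8 had at least 5. In 92 other genes with at least 100 counts in the 3′ UTR, 62.8% of 355 copies had a count near them, and 44.5% had at least 5. With 12 copies, some with overlapping windows, nothing is read from the difference. In Zfp36l1 the copies at nt 1131, 1150, 1191, 1405 and 1760 had 2, 8, 0, 24 and 46 counts near them. In Zfp36l2 those at nt 813, 822, 870 and 1056 had 83, 54, 3 and 0, the first pair sharing most of their counts.

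The longer form TTATTTATT, the nonamer favoured by ZFP36 proteins, occurred once in each 3′ UTR. Counts near it were 37 in Zfp36, 24 in Zfp36l1 and 52 in Zfp36l2. The hexamer with the most counts in Zfp36l1, the copy at nt 1760 with 46, is not part of a nonamer. The copies without counts, at nt 1191 in Zfp36l1 and nt 1056 in Zfp36l2, both read TATTTAT.

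**Figure D3:**
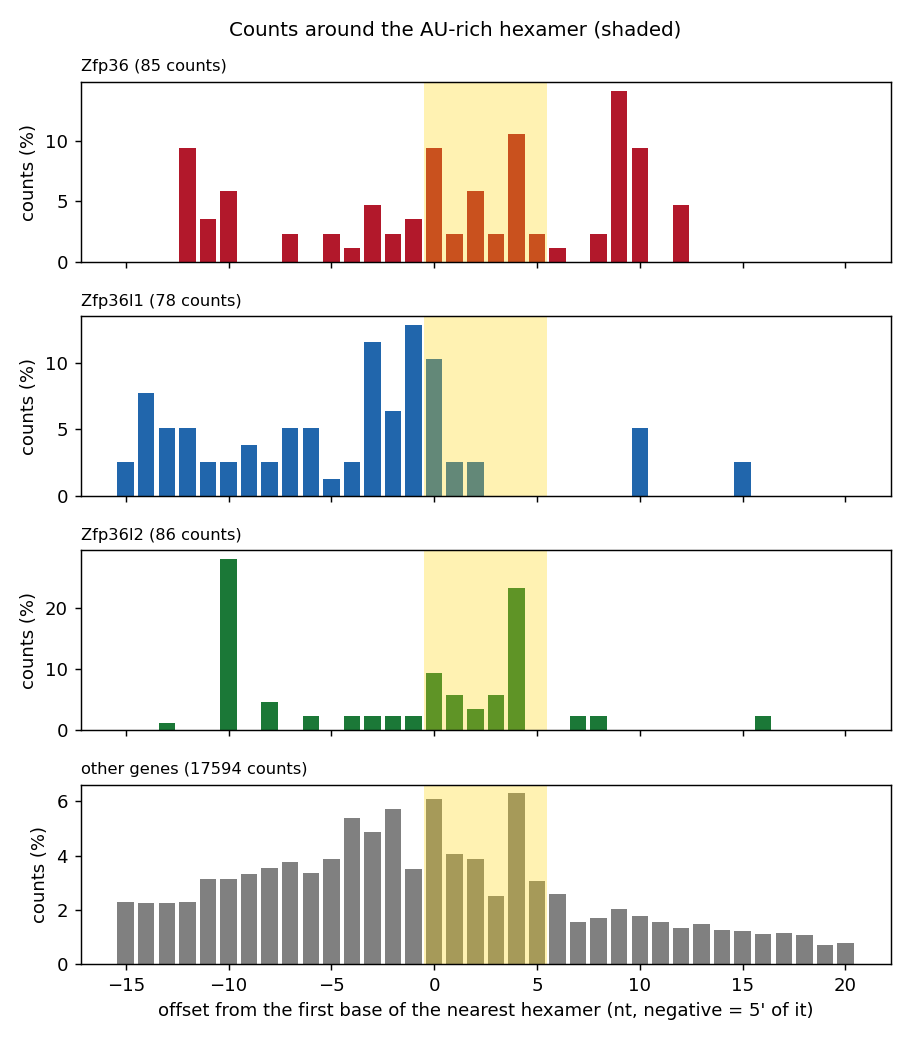
Share of the counts near TATTTA, in percent, by offset of the crosslinked base from the first base of the nearest hexamer in nt, with the hexamer shaded and negative offsets 5′ of it, for Zfp36, Zfp36l1, Zfp36l2 and all other genes. Zfp36l1 counts lie mainly 5′ of the hexamer and those of the other 2 members on both sides or within it.

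Around the hexamer the counts took a different place in each transcript, but few copies carried them. In Zfp36l1, the copies at nt 1405 and 1760 had 24 and 46 of the 78 counts near a hexamer. In Zfp36l2, 83 of 86 lay near the copy at nt 813. Whether the place belongs to the transcript or to single copies was not tested. Each base was assigned to the copy whose first base was nearest. Of the counts near a hexamer, 76.9% lay 5′ of the assigned copy in Zfp36l1, 45.3% in Zfp36l2 and 35.3% in Zfp36, against 52.7% over the 3′ UTRs of all other genes. Within the assigned copy lay 15.4% in Zfp36l1, 47.7% in Zfp36l2 and 32.9% in Zfp36, against 25.9% in other genes. In Zfp36l2 the 2 counts at nt 818, the last base of the copy at nt 813, were thereby taken as 5′ of the copy at nt 822. The median offset over counts, so that a position weighs by its count, was -3 nt in Zfp36l1, 0 in Zfp36l2 and 2 in Zfp36, and -1 in other genes. In Zfp36l2, 27.9% of the counts near a hexamer stood 10 nt 5′ of it, all 24 on the single base at nt 803. Since hexamers stand close together in Zfp36 and Zfp36l2, the nearest copy need not be the one bound.

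Crosslinked bases were mostly T. A T stood at 62.1% of the counts in Zfp36, 67.7% in Zfp36l1 and 70.1% in Zfp36l2, whereas T made up 32.4%, 32.2% and 32.3% of the bases of these 3′ UTRs. Over the 3′ UTRs of all other genes, 59.6% of counts stood at a T. Repeat and low-complexity sequence, in lower case in the reference, held 50.3% of counts and 28.7% of bases in Zfp36, 74.5% and 28.8% in Zfp36l1, and 59.2% and 16.5% in Zfp36l2. The sources used here do not give how reads that match several places were treated, and the part of such reads in these counts was not tested. No position of another gene was listed inside the 3 3′ UTRs, on either strand.

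Low counts were common among the 3 transcripts. A count of exactly 2 stood at 29 of 59 listed 3′ UTR positions in Zfp36, 33 of 71 in Zfp36l1 and 27 of 49 in Zfp36l2, more often than a count of 1, which stood at 11, 9 and 10. Over the whole list a count of 1 stood at 50.5% of positions and a count of 2 at 44.04%, but a count of 3 at only 1.88%. The sources used here do not give how the counts were merged. Counts of 5 or more stood at 7, 17 and 6 positions of Zfp36, Zfp36l1 and Zfp36l2.

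Similar 3′ UTR sequence was found only between Zfp36l1 and Zfp36l2. An alignment with a minimum length of 30 nt joined nt 1191 to 1381 of Zfp36l1 with nt 870 to 1041 of Zfp36l2, with 138 identical bases (68.3% of alignment columns, gaps included). No such block joined Zfp36 to either of them. This block held 117 counts of Zfp36l1, or 49.8% of its 3′ UTR counts on 10.4% of its bases. In Zfp36l2 it held 23 counts, or 15.6% on 9.44% of the bases.

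Few positions were listed in the block, so whether counts fall on matching bases of the genes cannot be read from it. Of its 161 columns without a gap, 25 had a listed position in Zfp36l1, 6 had one in Zfp36l2, and 1 had both, with 4 counts at nt 1255 of Zfp36l1 and 2 at nt 941 of Zfp36l2. The Zfp36l1 cluster with 68 counts at nt 1335 to 1357 aligned to nt 998 to 1013 of Zfp36l2, where 15 of 16 aligned bases were identical and 0 counts were listed. Of its 68 counts, 43 faced a base of Zfp36l2 and 38 an identical one, whereas 25, with the highest position at nt 1339 among them, faced a gap. The Zfp36l2 cluster with 19 counts at nt 903 to 915 aligned to nt 1221 to 1231 of Zfp36l1, identical at 11 of 11 bases and with 0 counts. There 15 of the 19 counts faced an identical base and 4 a gap. The Zfp36l1 cluster with 46 counts at nt 1246 to 1273 faced 2 counts in Zfp36l2, with 18 of 26 bases identical, and 10 of its counts faced a gap. The facing stretches of the first 2 are printed with capitals at bases with a listed position, to show how far they match.
Zfp36l1 nt 1335 to 1357, chr12:80108232-80108254: CActTTTtTtggtTATTTTAtTT
Zfp36l2 nt 998 to 1013, chr17:84184740-84184755: cttggttattttattg
Zfp36l2 nt 903 to 915, chr17:84184838-84184850: TattCtttTaTTA
Zfp36l1 nt 1221 to 1231, chr12:80108358-80108368: tattcttttat

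**Figure D4:**
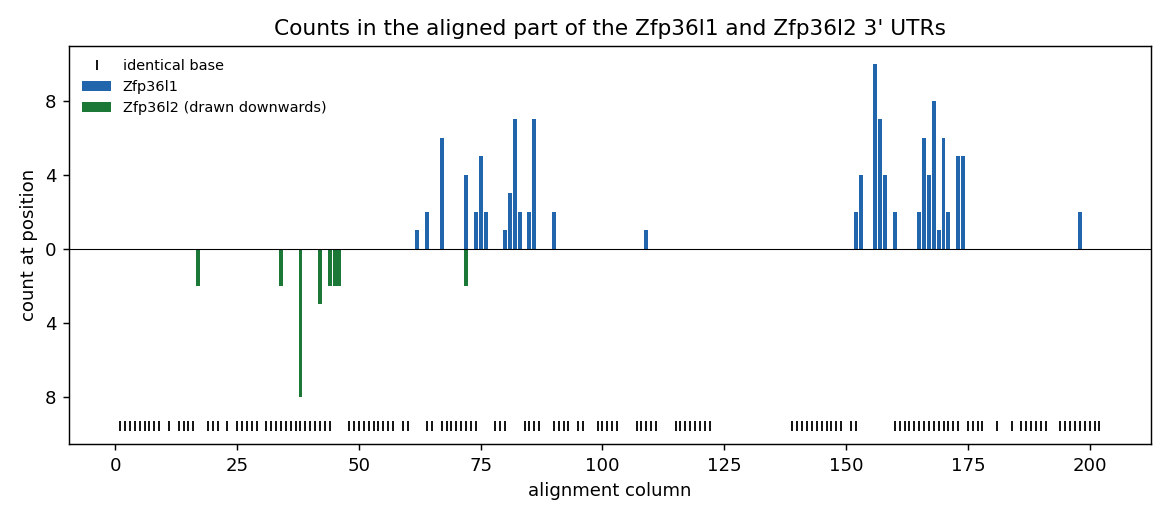
Count at each position of the aligned block of the 3′ UTRs, by alignment column, with Zfp36l1 drawn upwards, Zfp36l2 drawn downwards and ticks at identical bases. The block holds 117 counts of Zfp36l1 and 23 of Zfp36l2, and 1 column has counts of both.

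Ranked by summed site counts among all protein-coding genes, Zfp36l1 stood at place 11 with 213, Zfp36 at 33 with 127 and Zfp36l2 at 41 with 113. The fourth mouse gene of the family, Zfp36l3, known from placenta, was not listed. By the distribution of counts over 5′ UTR, coding sequence, 3′ UTR and intron, 1596 protein-coding genes with at least 100 counts were compared. The genes nearest to Zfp36 were Sox4, a transcription factor gene, and Actb, the gene for beta-actin, at Euclidean distances of 5.13 and 5.17 percentage points. Nearest to Zfp36l1 were Actb at 2.96 and Rag1, which encodes a subunit of the antigen receptor recombinase, at 3.69. Purb, the gene of a single-stranded nucleic acid-binding protein, at 2.00 and Mllt11 at 2.90 came nearest to Zfp36l2.

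**Figure D5:**
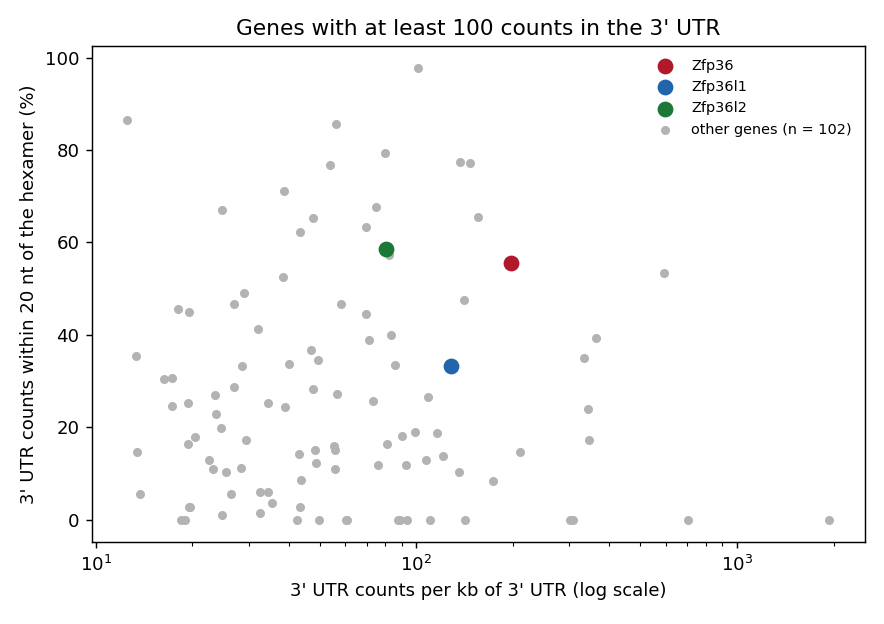
Share of 3′ UTR counts within 20 nt of TATTTA in percent against 3′ UTR counts per kb on a log axis, for Zfp36, Zfp36l1, Zfp36l2 and other genes with at least 100 counts in the 3′ UTR, 1 point per gene. Zfp36 and Zfp36l2 lie at 55.6% and 58.5%, above Zfp36l1 at 33.2% and above the median of 18.8% of the other genes.

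The family was also set beside the transcripts of the proteins it works with. All 3 listed members had a site in the 3′ UTR, beside 17.7% of 12541 protein-coding genes with a listed position. Among 11 subunits of the CCR4-NOT deadenylase, 6 had a 3′ UTR site, led by Cnot8 with 31 site counts, Cnot6 with 30 and Cnot6l with 11, all from deadenylase genes. Near TATTTA lay 93.5% of the site counts of Cnot8, 33.3% of those of Cnot6 and 0 of those of Cnot6l. Of 18 other decay factors 6 had a site, led by Ddx6, a decapping helicase gene, with 71 counts, and by the decapping genes Dcp2 with 30 and Dcp1a with 8.

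Proteins that modify or hold ZFP36 proteins and other AU-rich element binders were listed as well. Of 14 kinases, phosphatase subunits and 14-3-3 proteins, 7 had a 3′ UTR site, beside 17.7% of protein-coding genes with a listed position. They were led by the 14-3-3 genes Ywhaz with 169 counts and Ywhae with 67 and by the phosphatase gene Ppp2ca with 14. Of 12 other AU-rich element binding or decay proteins, 7 had a site, beside the same 17.7%, led by Elavl1 with 131 counts, Celf1 with 99 and Rc3h1 with 65. The listed genes were not matched to other genes by their number of counts, so nothing is read from these differences. Elavl1 encodes HuR, an AU-rich element binder known to stabilise mRNAs, and 88.5% of its site counts lay near TATTTA. In Zfp36, Zfp36l1 and Zfp36l2 the same share was 66.9%, 32.9% and 73.5%.

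The list carried RNA of the labelled cells. Of 9 thymocyte markers, 8 had a 3′ UTR site, beside 17.7% of protein-coding genes with a listed position. These markers had 11 to 2709 listed counts each and 7354 in all. Marker counts cover all segment types, introns included, and were not corrected for gene length. In Themis, for instance, the 3′ UTR held 5.98% of the counts. Nor were the markers matched to other genes by their number of counts. Markers of B cells summed to 3 counts, of myeloid cells to 21, of erythroid cells to 14 and of thymic epithelium to 7, over 3 genes each, and 1 of these 12 genes had a 3′ UTR site. The highest single marker had 2, 16, 12 and 6 counts in the same order. The highest myeloid and erythroid markers thus stood above the lowest thymocyte marker. The part of other cells in the counts of Zfp36, Zfp36l1 and Zfp36l2 was not tested.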

How the data were processed

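Crosslink positions of iCLIP libraries from mouse thymocytes (1 DCKO, 2 WT) were taken from a single list in which libraries are not separated. The members and gene lists were chosen with earlier results of these data known. Bowtie and GRCm38 are named per the submitters' processing notes, and the sources used here give no other step. The deposited value per position is a whole-number count, signed by strand and treated as a score. The deposited extended score is the sum within 15 nt. The deposited FDR, another score, defined sites (below 0.05), and the deposited p-value was not used.

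The design allowed for counts per library, which the list does not hold, so values are descriptions without tests or replicate error. Positions count from 0 in the list, since 846 of 847 rows 1 base below a coding exon's first base were labelled coding, and are printed from 1. 3′ UTRs came from GENCODE vM21 and sequence from RefSeq's GRCm38.p6. Clusters joined positions at most 15 nt apart. Hexamers were searched on the transcribed strand only, with overlapping copies counted. Related 3′ UTRs were aligned with blastn 2.17.0 (word size 7, minimum length 30 nt). Genes named are the family, the 3 members of each list with most site counts and, for each member, the 2 genes nearest in segment shares. Python 3.11.15, pandas 2.3.3, numpy 2.4.6 and scipy 1.17.1 were used, and cluster and motif steps were tested on simulated data. The simulation used a wider joining gap than the clusters here and hexamers far apart in C and G sequence. It did not cover AT-rich sequence or hexamers that stand close together. Depth per library is unknown. The summed count of the list was 814493.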

Additional observations from a re-analysis of the deposited data

How the results depend on the processing

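Of 36 values recomputed under other settings, 17 stayed within the range expected from counting error or within 1.5 times the count, and 19 moved further. Among sites, a count of 3 or more left 18 in Zfp36, 28 in Zfp36l1 and 10 in Zfp36l2, and taking every listed position gave 49 in Zfp36l2. For the share of site counts near TATTTA, 10 nt on either side gave 49.6%, 18.3% and 46.02% in Zfp36, Zfp36l1 and Zfp36l2, and 50 nt gave 78.7%, 46.5% and 90.3%. All listed positions gave 55.6% in Zfp36 and 58.5% in Zfp36l2, each site taken once gave 63.3% in Zfp36l2, and ATTTA in place of TATTTA gave 43.2% in Zfp36l1. Zfp36l1 had the lowest share under each of these settings. Clusters numbered 19 in Zfp36 with gaps of at most 5 nt, 6 in Zfp36l2 with gaps of at most 30 nt, and 2, 4 and 4 in Zfp36, Zfp36l1 and Zfp36l2 from sites alone. The cause of the moves was not tested beyond the construction of each setting.

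The list does not separate libraries, so no library was left out in turn, and the genotypes, the spread between experiments and the background of DCKO cells were not examined. No paired analysis was possible because the positions carry no replicate number. Most positions rest on 1 or 2 counts, which limits the place of single bases more than that of clusters.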
